A study of Mus musculus with 18 samples.

Results

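Defensins are small cationic peptides of innate immunity, held together by disulfide bonds, that disrupt the membranes of bacteria. In the mouse the alpha-defensins (Defa genes, also called cryptdins) are made by Paneth cells at the base of the intestinal crypts and stored in granules, where the protease Mmp7 cuts them into their active form. The beta-defensins (Defb genes) are made by epithelia of the airway, skin, kidney and mouth, and many of them in the epididymis and testis, where some coat sperm. Neither family is best known from heart muscle cells.

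The members were all protein-coding autosomal genes whose symbols start with Defa or Defb and a digit, 70 of 20661 protein-coding autosomal genes of the annotation (GRCm38.p6): 28 alpha-defensins and 42 beta-defensins. They were examined in cardiomyocyte-enriched cells of C57BL/6J mice by chromatin immunoprecipitation and sequencing (ChIP-seq) for G9a, the lysine methyltransferase encoded by Ehmt2; for H3K9me2, the histone mark that it makes; for H3K27me3, the mark of Polycomb repressive complex 2; and for Mef2c, a transcription factor of muscle. The KO mice carried G9a flox/flox and alphaMHC-MerCreMer +/-, and the control mice, called Cre, carried alphaMHC-MerCreMer +/- without floxed G9a in the labels. Both groups therefore carry the Cre transgene, which the alpha myosin heavy chain promoter drives in cardiomyocytes, so other cells in the preparation keep G9a. The labels used here give neither age nor a tamoxifen schedule. Each target had 2 Cre and 2 KO libraries, described in the study's design text as biological replicates, and each genotype had 1 input library, 18 libraries in all.

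The authors deposited, for each target, a list of regions that differed between KO and Cre: 621134 G9a regions, 716658 H3K9me2 regions, 504986 H3K27me3 regions and 534606 Mef2c regions. Each region carries 4 signal values, 2 of Cre and 2 of KO, whose scale is not stated in the sources at hand; the depth behind them is unknown. A region is called lower or higher by the mean KO value against the mean Cre value, and sequence outside the lists has no value, so every count below is of listed differences and not of occupancy. For the same reason, the lists cannot show the level of a marker: at least 1 region was listed near 4 or 5 of 5 cardiomyocyte markers, 3 of 3 Paneth cell markers and 4 of 4 neutrophil markers for every target, and whether other cells were present was not tested. At Ehmt2 itself, the region chr17:34907251-34908750 showed G9a at 410 and 353 in Cre against 67 and 106 in KO. Of the other 4 G9a regions listed there, 1 was lower in both KO libraries (157 and 75 in Cre against 73 and 74 in KO), 1 was higher in both (123 and 174 in Cre against 175 and 246 in KO) and 2 had overlapping groups; the position of the floxed part was not used here, so these regions do not check the labels.

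The defensin genes lay in 5 clusters, counted as runs of members less than 1 Mb apart. Defb18 and Defb41 were on chromosome 1 within 28.7 kb. Chromosome 2 held 11 beta-defensins from Defb23 to Defb25 within 164.0 kb, and chromosome 14 held 5 from Defb48 to Defb42 within 71.1 kb. The first cluster of chromosome 8 ran from Defb40 to Defb7 with 14 beta-defensins over 522.9 kb (chr8:18974914-19497775). The second held all 28 alpha-defensins, from Defa21 to Defa24 over 709.9 kb (chr8:21025545-21735471), with Defb33 before them and 9 beta-defensins from Defb1 to Defb13 after them.

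The families differ in how alike their members' promoters are. RefSeq promoter windows (GRCm38.p6, 250 bases before to 50 bases after an annotated start) were at hand for 45 members, 16 alpha-defensins and 29 beta-defensins, the last with 30 windows. That start is not always the edge of the gene span. The Defb47 window (chr14:62997827-62998126) lies within a span that begins at 62992375. For Defa28 the span begins at 21582960, before the start used, so its printed stretch reaches into the gene. Identity compares windows as placed. Among the 16 alpha windows, 10 were identical to that of another member, in the pairs Defa21 and Defa22, Defa23 and Defa31, Defa2 and Defa20, Defa36 and Defa37, and Defa42 and Defa43. The last 150 bases before the start are printed for 3 of these pairs through Defa20 (chr8:21509108-21509257), Defa21 (chr8:21025395-21025544) and Defa23 (chr8:21054890-21055039), for Defa30 (chr8:21134500-21134649), which has listed regions of all 4 targets, and for Defa28 (chr8:21582877-21583026), the most divergent alpha window at 63.7% identity to its nearest member. All are on the plus strand and written 5′ to 3′, with the motif TATAAA, the usual form of a TATA box, in capitals.
Defa20: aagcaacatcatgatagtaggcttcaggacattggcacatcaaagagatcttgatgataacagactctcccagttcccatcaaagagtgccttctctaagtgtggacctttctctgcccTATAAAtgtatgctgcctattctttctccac
Defa21: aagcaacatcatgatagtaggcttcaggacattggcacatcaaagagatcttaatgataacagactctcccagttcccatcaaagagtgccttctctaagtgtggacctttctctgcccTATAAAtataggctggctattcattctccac
Defa23: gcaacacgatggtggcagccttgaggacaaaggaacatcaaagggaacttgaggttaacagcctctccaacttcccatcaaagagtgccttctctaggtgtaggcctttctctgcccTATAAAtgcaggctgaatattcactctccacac
Defa30: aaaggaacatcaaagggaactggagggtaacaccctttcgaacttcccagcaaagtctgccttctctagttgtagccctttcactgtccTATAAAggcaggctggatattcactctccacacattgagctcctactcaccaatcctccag
Defa28: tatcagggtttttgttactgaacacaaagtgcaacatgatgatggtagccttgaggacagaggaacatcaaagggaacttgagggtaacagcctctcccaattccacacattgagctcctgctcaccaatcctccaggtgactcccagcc
TATAAA on the gene's strand was found in 15 of 16 alpha windows (93.8%), in 3 of 30 beta windows (10%) and in 8.29% of the 20084 windows of all autosomal protein-coding genes; on either strand the shares were 93.8%, 16.7% and 12.7%. Its first base lay 31 bases before the start in Defa20 and Defa21, 33 in Defa23 and 61 in Defa30, and between 29 and 74 bases over the 15 windows. Defa28 was the alpha window without it. Only this exact motif was searched, so related sequences, such as the tatataag in the Defb3 and Defb8 stretches below, were not counted.

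The beta windows were less alike, with 48.0% to 87.7% identity to the nearest other member. The closest pair was Defb3 (chr8:19293211-19293360, plus strand) and Defb8 (chr8:19447607-19447756, minus strand), which lie in the first cluster of chromosome 8. Capitals mark the bases that differ, or are inserted, between them in the last 150 bases before the start.
Defb3: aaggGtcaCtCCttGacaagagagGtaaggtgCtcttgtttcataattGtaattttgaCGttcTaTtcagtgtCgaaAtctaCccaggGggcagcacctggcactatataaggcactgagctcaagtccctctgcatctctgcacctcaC
Defb8: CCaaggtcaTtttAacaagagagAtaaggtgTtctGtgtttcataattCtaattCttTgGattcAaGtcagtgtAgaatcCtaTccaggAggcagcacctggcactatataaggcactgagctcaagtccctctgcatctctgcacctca
Defb11 (chr8:21906433-21906582, minus strand) is shown because its promoter window met listed regions of all 4 targets, all lower in KO. It holds no TATAAA, so nothing is in capitals.
Defb11: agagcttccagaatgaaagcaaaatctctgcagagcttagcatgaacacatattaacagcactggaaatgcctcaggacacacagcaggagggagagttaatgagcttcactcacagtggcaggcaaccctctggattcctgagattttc

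Listed differences were found at every beta-defensin for every target and at 24 of 28 alpha-defensins for at least 1 target, least often for H3K27me3. With the gene span and 5 kb either side as the window, all 42 beta-defensins had at least 1 region of every target. Of the 28 alpha-defensins, 18 had a G9a region, 22 an H3K9me2 region, 8 an H3K27me3 region and 16 a Mef2c region. Among all 20661 genes the shares were 96.2%, 96.6%, 80.3% and 96.4%, and among the 14328 other genes of at most 36 kb they were 94.8%, 95.3%, 77.4% and 95%. No test of these shares was made, since neighbouring members share windows.

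Per length, the contrast was sharpest for H3K27me3. Alpha-defensin windows held 0.36 H3K27me3 regions per 10 kb, against 3.73 for beta-defensins and 1.79 for all genes. For G9a the densities were 1.63, 3.26 and 2.28, for H3K9me2 2.51, 3.95 and 2.58, and for Mef2c 1.34, 3.02 and 2.12. The other genes of at most 36 kb had 2.49 (G9a), 2.37 (H3K9me2), 1.96 (H3K27me3) and 2.19 (Mef2c). The beta-defensins were above both backgrounds for each target, and the alpha-defensins below both for all targets but H3K9me2, where they lay between them. The full length of the listed H3K27me3 regions, with any part beyond the window edges, came to 2.04% of the alpha windows and 35.9% of the beta windows.

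The alpha-defensins differed among themselves. Defa23, Defa32, Defa37 and Defa43 had no region of any target, and Defa2, Defa33, Defa36, Defa20 and Defa28 had regions of 1 target. Defa25, Defa38, Defa30, Defa29, Defa39 and Defa24 had regions of all 4 targets, and the other 13 had regions of 2 or 3. The highest counts among alpha-defensins were 6 G9a regions at Defa27, 7 H3K9me2 regions at Defa29, 2 H3K27me3 regions (Defa38, Defa30 and Defa24) and 6 Mef2c regions at Defa30. Among beta-defensins the highest were 9 G9a regions (Defb36 and Defb14), 17 H3K9me2 and 15 H3K27me3 regions at Defb14, whose annotated span of 35066 bp is the longest, and 12 Mef2c regions at Defb12 and Defb14.

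**Figure D1:**
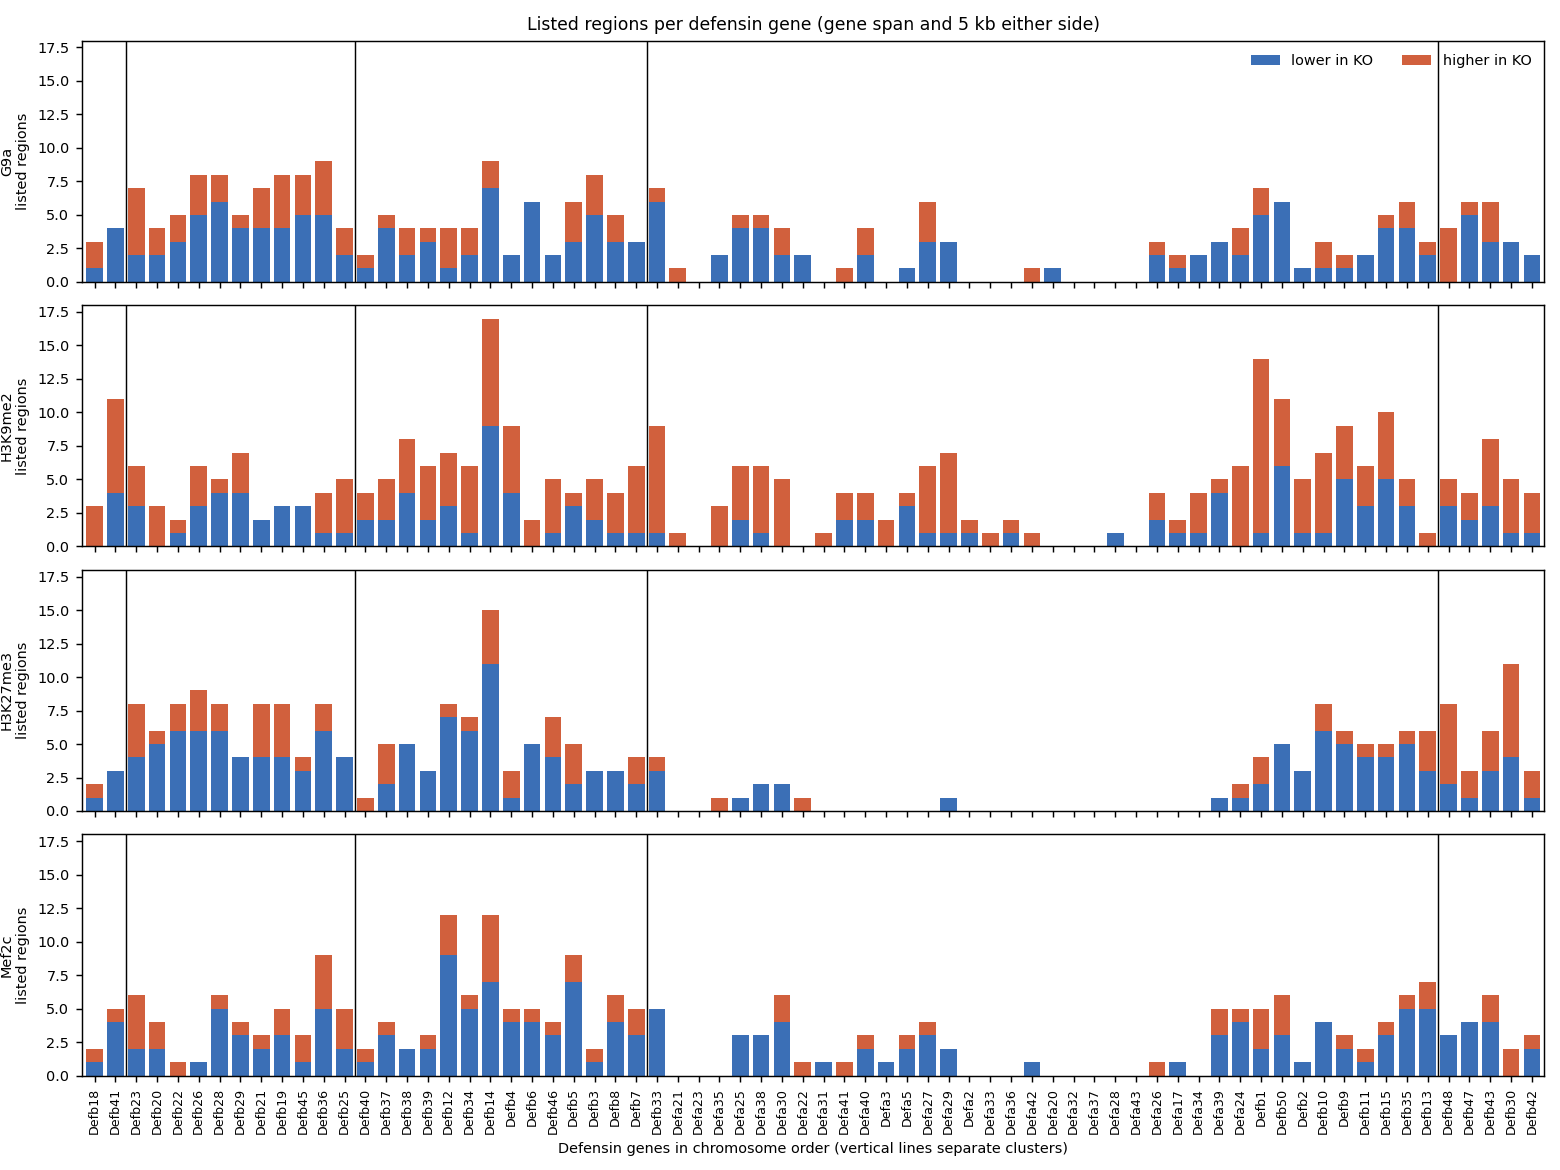
Number of listed regions (vertical axis) in the window of each of the 70 defensin genes (horizontal axis, chromosome order), by target, with regions lower in KO in blue and higher in orange; a region in the windows of neighbouring genes counts for each. The alpha-defensins in the middle of the second chromosome 8 cluster have few or no bars, and all 42 beta-defensins have bars for every target.

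Along the second chromosome 8 cluster the low stretch began and ended within the alpha-defensins. From Defa21 to Defa24 there were 16.8 G9a, 23.2 H3K9me2, 3.9 H3K27me3 and 14.5 Mef2c regions per 100 kb. From Defb1 to Defb13, just after them, there were 28.5, 48.2, 34.9 and 30.8, and in the first chromosome 8 cluster 31.7, 44.8, 28.5 and 32.1. The longest run without an H3K27me3 region was 153.2 kb (chr8:21336101-21489250) and contained Defa2, Defa33, Defa36 and Defa42. The longest run without a region of any target was 30 kb (chr8:21555651-21585650), around Defa37 and Defa28.

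**Figure D2:**
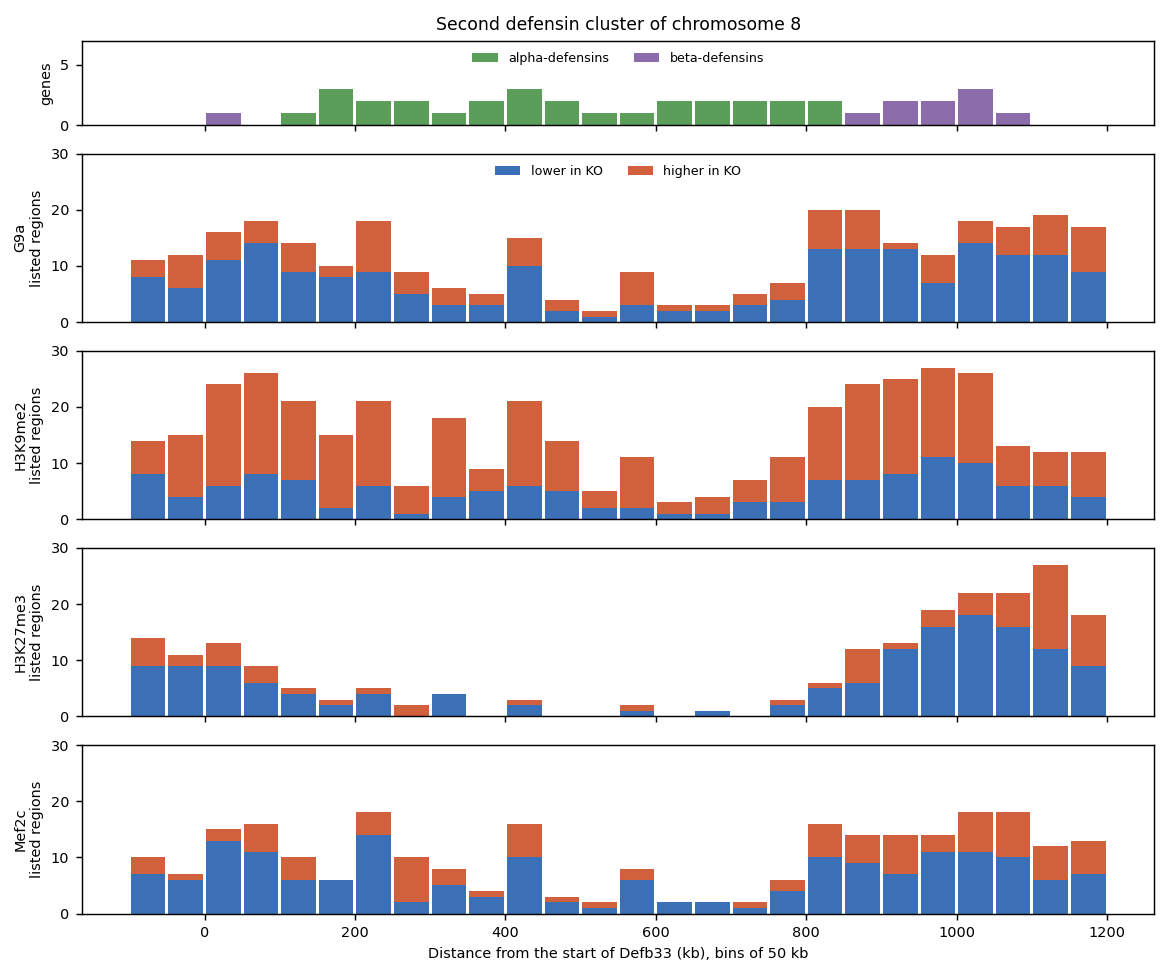
Genes and listed regions in bins of 50 kb along the second defensin cluster of chromosome 8, by distance from the start of Defb33 (kb). Counts of all 4 targets are low over much of the alpha stretch (green) and higher over the beta-defensins that follow (purple), and few H3K27me3 regions lie within the alpha stretch.

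Among the members with a promoter window, identity went with these counts. Identity is unknown for the other alpha-defensins, which had from 1 region (Defa33) to 17 (Defa24). The link was therefore not examined over the whole alpha family. The 10 alpha-defensins with an identical partner had 0 listed regions of any target in the promoter window and 0 to 4 (median 2) in the wider window. Defa30, at 73.3% identity to its nearest member, had 17 regions in the wider window, but Defa38 at 97.3% had 16 and Defa28 at 63.7% had 1. Beta-defensins had 12 to 30 regions (median 20). The sources used here do not say how reads that fit several places were treated, so values near these copies are uncertain, and the part of that step in the low counts was not tested.

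**Figure D3:**
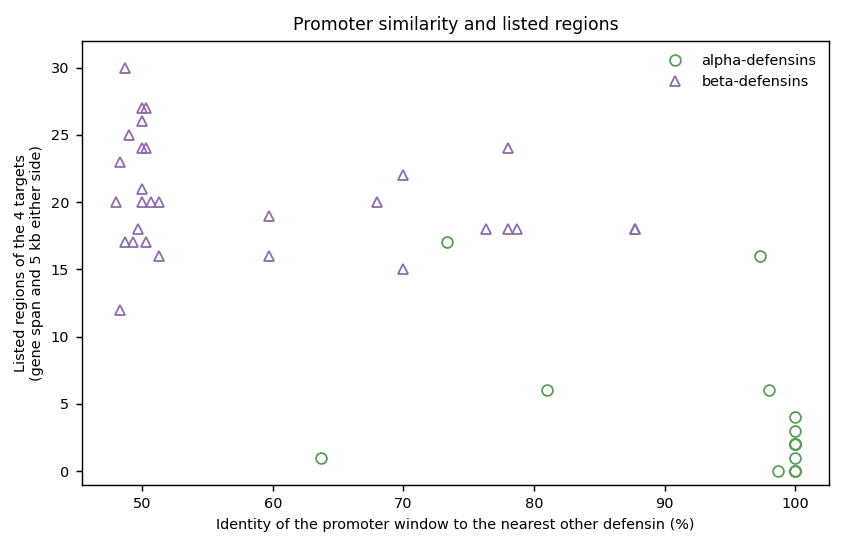
Listed regions of the 4 targets per gene (vertical axis) against the identity of its promoter window to that of the nearest other defensin (horizontal axis, %), for 16 alpha windows (circles) and 30 beta windows (triangles). The points at 100% have 0 to 4 regions, and the beta points, all at 87.7% or less, have 12 or more. Members without a promoter window are not shown.

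At the promoters themselves, 3 of 16 alpha windows (18.8%) and 29 of 30 beta windows (96.7%) met a listed region, against 55.8% of all windows. The alpha windows were those of Defa35 (G9a lower, H3K9me2 higher), Defa38 (G9a and Mef2c lower) and Defa30 (Mef2c higher). Alpha-defensins without a promoter window could not be counted. They had from 1 (Defa33) to 17 (Defa24) regions in the wider window. Defa25, Defa29, Defa39 and Defa24, with regions of all 4 targets, were among them, so the alpha share may not stand for the family. H3K27me3 regions met 0 alpha windows, 20 beta windows (66.7%) and 29.5% of all. Defb45 had the beta window without a region, and Defb7, Defb11 and Defb23 had regions of all 4 targets there. The MEF2 motif, searched on both strands, was found in 0 alpha windows, in 1 beta window, that of Defb47, where a Mef2c region was lower in KO, and in 2.62% of all windows.

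In the KO libraries most listed G9a, H3K27me3 and Mef2c regions at the defensins were lower and most H3K9me2 regions were higher, in both families and at shares close to those of the whole lists. For G9a, 32 of 48 alpha regions (66.7%) and 122 of 187 beta regions (65.2%) were lower, against 61.5% of the whole list. For H3K27me3, 7 of 10 alpha regions (70.0%) and 145 of 212 beta regions (68.4%) were lower, against 63.3%. For Mef2c, 30 of 41 (73.2%) and 116 of 176 (65.9%) were lower, against 61.7%. For H3K9me2, 23 of 75 alpha regions (30.7%) and 91 of 233 beta regions (39.1%) were lower, against 39.7%. These directions are those of the lists as wholes and are not particular to the defensins.

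Counted by gene, mixed directions were common. Among the beta-defensins 31 of 42 had G9a regions of both directions, 10 only lower and 1, Defb48, only higher. H3K9me2 had 35 with both, 3 only lower and 4 only higher; H3K27me3 had 31, 10 and 1; Mef2c had 33, 7 and 2. Among the alpha-defensins with regions, 7 were only lower, 3 only higher and 8 both for G9a; 1, 8 and 13 for H3K9me2; 5, 2 and 1 for H3K27me3; and 7, 3 and 6 for Mef2c. Over all genes the shares with only lower, only higher and both directions were 9.51%, 4.99% and 81.7% (G9a), 3.86%, 10.2% and 82.5% (H3K9me2), 13.2%, 8.62% and 58.5% (H3K27me3), and 10.8%, 4.38% and 81.1% (Mef2c).

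The separation of libraries was also that of the lists. The 2 KO values did not overlap the 2 Cre values in 157 of 235 G9a regions at defensins (66.8%), 212 of 308 H3K9me2 regions (68.8%), 151 of 222 H3K27me3 regions (68.0%) and 138 of 217 Mef2c regions (63.6%). The whole lists had 61.5%, 65.7%, 67.1% and 65.9%. With limma on log2(value + 1), 20 G9a regions had an unadjusted p under 0.05 (8.51%, whole list 6.5%), 40 H3K9me2 regions (13%, whole list 11.1%), 34 H3K27me3 regions (15.3%, whole list 15.3%) and 18 Mef2c regions (8.29%, whole list 11.3%). The lower and higher calls among them were 16 and 4 (G9a), 9 and 31 (H3K9me2), 30 and 4 (H3K27me3) and 15 and 3 (Mef2c). The whole lists had 31830 and 8569, 20682 and 58699, 61884 and 15127, and 46078 and 14214 in the same order. With the libraries scaled to the same median, the calls at defensins were 8 and 6, 26 and 15, 13 and 13, and 5 and 7. The whole lists then had 15017 and 25830, 50302 and 29106, 24681 and 40056, and 20636 and 36964. The split thus rests on the scaling, at the defensins and in the whole lists. The median log2 difference of the whole lists moved from -0.83 to -0.51, 0.78 to 0.49, -0.65 to -0.37 and -0.81 to -0.49 in the same order of targets. After Benjamini-Hochberg adjustment over each whole list, limma called 0 defensin regions for any target, with smallest adjusted p of 0.454, 0.40, 0.322 and 0.399 in the order G9a, H3K9me2, H3K27me3, Mef2c. Over the whole lists it called 0% of G9a regions, 0% of H3K9me2 regions, 0.00119% of H3K27me3 regions and 0% of Mef2c regions. Without the first KO value some G9a regions passed, at the defensins and throughout the whole list, but that fit leaves 1 KO value. The regions described next are described by their values, and none passed the test with all libraries.

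Summed over listed regions, the KO values lay below the Cre values for G9a, H3K27me3 and Mef2c and above them for H3K9me2, in alpha-defensins and beta-defensins alike. The alpha sums for G9a were 5892 and 6166 in Cre against 4398 and 4261 in KO, a log2 ratio of -0.48 (n = 2 libraries per genotype, exact permutation p = 0.333, the smallest that 2 against 2 allows). The beta sums for G9a were 26969 and 25127 in Cre against 22161 and 17342 in KO, a log2 ratio of -0.40 that was -0.23 without the second KO value and -0.59 without the first. For H3K9me2 the alpha sums were 6748 and 7245 in Cre against 8731 and 9338 in KO (0.37), and the beta sums 25846 and 24893 in Cre against 30840 and 32633 in KO (0.32). No pair of groups overlapped in these sums. The sums of the whole lists were separated in the same directions. They were 81854091 and 74637114 in Cre against 67330671 and 60303126 in KO for G9a. For H3K9me2 they were 75952258 and 67612918 in Cre against 83393571 and 88748057 in KO. The separation is therefore not particular to the defensins.

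For H3K27me3 the alpha sums, over only 10 regions, were 1049 and 960 in Cre against 634 and 807 in KO (-0.48, or -0.32 without the first KO value). The beta sums were 46313 and 45473 in Cre against 34035 and 36298 in KO (-0.38). For Mef2c the alpha sums were 4591 and 3838 in Cre against 3021 and 2753 in KO (-0.55), and the beta sums 20647 and 21410 in Cre against 15760 and 17035 in KO (-0.36). Each of these separations again had an exact permutation p of 0.333. The whole lists were again separated in the same direction. Their sums were 114744154 and 111835917 in Cre against 91245526 and 91306125 in KO for H3K27me3. For Mef2c they were 59195613 and 57120167 in Cre against 44305272 and 49004436 in KO. The families' log2 ratios differed, alpha minus beta, by -0.07 (G9a), 0.05 (H3K9me2), -0.10 (H3K27me3) and -0.18 (Mef2c), with exact permutation p of 1.0, 1.0, 0.667 and 0.667, so no difference in response was detectable between them with these libraries. With the libraries scaled to the same median over each list, the ratios shrank to -0.16 and -0.08 in G9a, 0.07 and 0.03 in H3K9me2, -0.20 and -0.10 in H3K27me3 and -0.21 and -0.03 in Mef2c (alpha, then beta), and the KO and Cre sums then overlapped for both families in H3K9me2 and Mef2c and for the alpha-defensins in G9a.

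**Figure D4:**
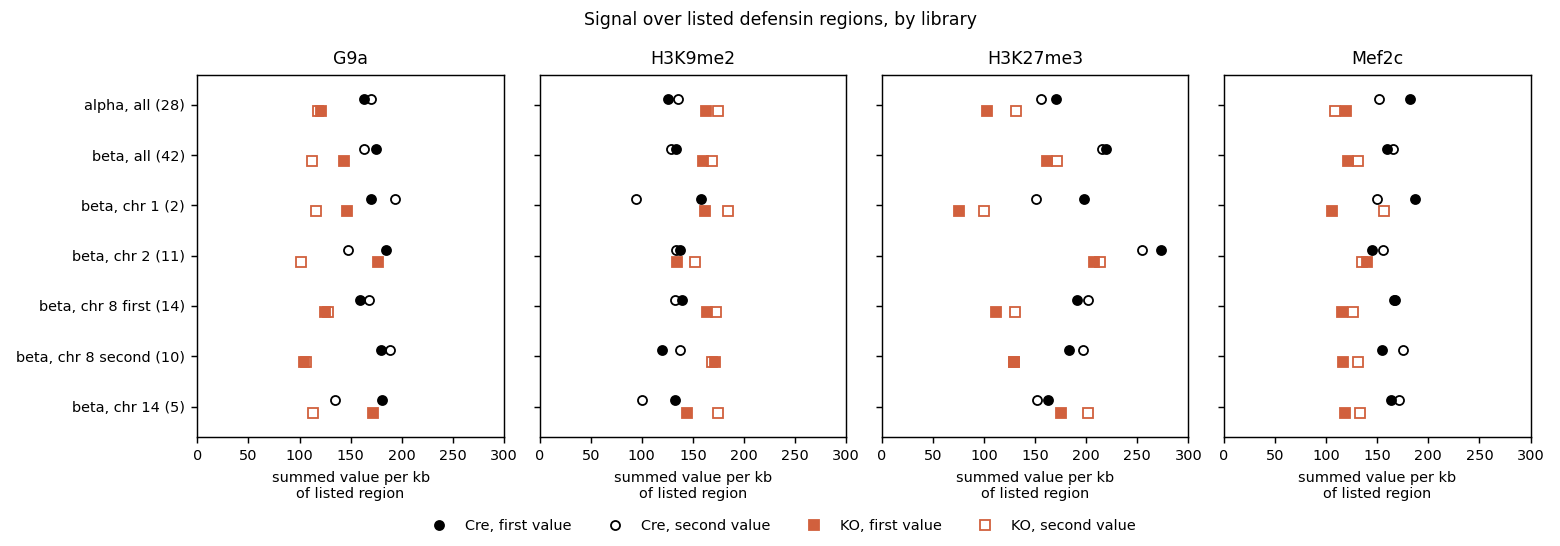
Summed value per kb of listed region (horizontal axis, the authors' unscaled units) in each Cre library (black) and KO library (orange), for the alpha-defensins, the beta-defensins and each beta cluster, with the number of genes in parentheses. H3K27me3 is highest in the chromosome 2 cluster, and only in the chromosome 14 cluster are both KO values of H3K27me3 above both Cre values.

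The beta clusters differed from each other in H3K27me3. The chromosome 2 cluster, which includes Defb22, known for coating sperm, had 63 H3K27me3 regions. Their full length, with any part beyond the window edges, came to 65.0% of the windows. They had a mean value of 237.3 per kb, a highest value of 608.7 per kb and a longest region of 5300 bp. By the same measures of length and mean value, the first chromosome 8 cluster had 26.9% and 158.7 per kb. The beta-defensins of the second had 29.6% and 159.7, the chromosome 14 cluster 34.2% and 173.0, and the chromosome 1 cluster 8.37% and 131.3. By the median over regions, the values were 196.5 per kb on chromosome 2, 144.2 and 145.5 in the first and second chromosome 8 clusters, 166.8 on chromosome 14 and 126.2 on chromosome 1, against 154.7 over the whole list.

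In 4 of the 5 groups of beta-defensins, H3K27me3 sums were lower in KO. In the first chromosome 8 cluster they were 10676 and 11264 in Cre against 6271 and 7264 in KO (log2 ratio -0.70, or -0.42 after scaling, 51 of 67 regions lower), and in the beta-defensins of the second 7607 and 8212 in Cre against 5370 and 5392 in KO (-0.56, or -0.27 after scaling, 36 of 47). On chromosome 2 they were 23301 and 21678 in Cre against 17703 and 18190 in KO (-0.33, 43 of 63), a separation that was lost at -0.04 with the libraries scaled to the same median. On chromosome 1, with only 5 regions, they were 584 and 446 in Cre against 224 and 295 in KO (-0.99, 4 of 5). On chromosome 14, where Defb30 and Defb42 are known from the epididymis, the sums were instead 4145 and 3873 in Cre against 4467 and 5157 in KO (0.26, 11 of 30 lower), 0.16 without the second KO value and 0.54 after scaling. The difference of chromosome 14 from the other members was 0.73 on the log2 scale, with the smallest exact permutation p that the design allows, 0.333. That p is not particular to chromosome 14. The chromosome 1 cluster (-0.61), the first chromosome 8 cluster (-0.4) and the beta-defensins of the second (-0.2) reached it in the same comparison.

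G9a sums were furthest below Cre at the beta-defensins of the second chromosome 8 cluster. Their sums were 5829 and 6095 in Cre against 3374 and 3443 in KO (log2 ratio -0.81, 30 of 39 regions lower, exact permutation p = 0.333), and the ratio was -0.48 after scaling. On chromosome 2 the G9a sums overlapped, at 9578 and 7628 in Cre against 9161 and 5251 in KO (-0.26, 0.09 without the second KO value, 0.05 after scaling). On chromosome 14 they overlapped too, at 2799 and 2075 in Cre against 2656 and 1749 in KO (-0.15, 0.12 without the second KO value, 0.17 after scaling). The first chromosome 8 cluster had 7694 and 8113 in Cre against 6045 and 6168 in KO (-0.37, or -0.05 and overlapping after scaling).

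The chromosome 2 cluster also differed in the other targets by its values. Its H3K9me2 sums overlapped, at 4315 and 4187 in Cre against 4225 and 4784 in KO (log2 ratio 0.08, or -0.01 without the second KO value), with 22 of 42 regions lower; after scaling to the same median the ratio was -0.21 and the sums no longer overlapped. In the first chromosome 8 cluster they were 10114 and 9626 in Cre against 11876 and 12511 in KO (0.30, or 0.01 and overlapping after scaling), and in the beta-defensins of the second 7175 and 8188 in Cre against 10253 and 10059 in KO (0.40, or 0.10 and overlapping after scaling). Its Mef2c sums were 4562 and 4901 in Cre against 4409 and 4256 in KO (-0.13, 23 of 43 lower), a direction that turned to 0.20 after scaling. The first chromosome 8 cluster had Mef2c sums of 8478 and 8401 in Cre against 5843 and 6399 in KO (-0.46, or -0.14 after scaling, 49 of 71 lower).

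Among the alpha-defensins, the regions with the highest -log10 p in the authors' deposited lists lay mostly between genes. The highest was a G9a region near Defa29. This region, chr8:21330851-21331650 and 3831 bp from the gene, had 233 and 183 in Cre against 34 and 0 in KO (-log10 p of 40.03 in the authors' deposited list). The strongest H3K9me2 region of the alpha-defensins, chr8:21323851-21324300, 1588 bp from the same gene, had 0 and 2 in Cre against 73 and 134 in KO. Over its whole window Defa29 had 3 G9a regions, all lower in KO, and 7 H3K9me2 regions, 6 higher and 1 lower; the lower region, chr8:21327901-21328950, had 248 and 306 in Cre against 100 and 142 in KO. A lower G9a region that meets the gene, with 255 and 219 in Cre against 163 and 1 in KO, overlapped a higher H3K9me2 region with 207 and 68 in Cre against 216 and 165 in KO, where the groups overlap.

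Defa24, the last alpha-defensin of the cluster, had strong regions of 3 kinds. Mef2c at chr8:21728751-21729950 had 245 and 234 in Cre against 71 and 69 in KO, a log2 ratio of -1.76 (limma unadjusted p = 0.00923). H3K9me2 at chr8:21729401-21730200, which overlaps it, had 45 and 36 in Cre against 140 and 222 in KO (2.13). H3K27me3 at chr8:21730701-21731650 had 91 and 109 in Cre against 174 and 241 in KO (1.05). Over its whole window Defa24 had 6 H3K9me2 regions, all higher, 1 lower and 1 higher H3K27me3 region, and 4 lower and 1 higher Mef2c regions. Its strongest higher G9a region had 119 and 36 in Cre against 96 and 258 in KO, which overlap.

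Near Defa30, G9a had 452 and 455 in Cre against 90 and 244 in KO (log2 ratio -1.44), and H3K27me3 130 and 105 in Cre against 1 and 55 in KO. Its promoter region of Mef2c, chr8:21134351-21134750, had 12 and 39 in Cre against 57 and 95 in KO. The H3K27me3 region shared by the windows of Defa25 and Defa38 had 182 and 96 in Cre against 60 and 17 in KO, and the Mef2c region of Defa25 had 110 and 118 in Cre against 14 and 25 in KO. The H3K9me2 values at Defa41 ran the other way from most, with 293 and 460 in Cre against 120 and 202 in KO. None of these regions had overlapping groups. The strongest higher G9a region of Defa40, 4215 bp from the gene, had 30 and 27 in Cre against 95 and 186 in KO. The strongest higher Mef2c region of Defa39, 3054 bp from the gene, had 5 and 47 in Cre against 108 and 98 in KO.

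Other alpha-defensins had regions of either direction. Defa5 had H3K9me2 of 167 and 106 in Cre against 11 and 80 in KO at a region that meets the gene. Defa17 had G9a of 212 and 101 in Cre against 11 and 48 in KO at 1365 bp from the gene, and H3K9me2 of 206 and 99 in Cre against 48 and 30 in KO at 1067 bp. Both were lower in both KO libraries. Defa20 had as its only region G9a values of 84 and 40 in Cre against 17 and 35 in KO. Defa21 had G9a of 48 and 94 in Cre against 135 and 166 in KO, Defa22 had H3K27me3 of 19 and 44 in Cre against 92 and 106 in KO, and Defa26 had H3K9me2 of 127 and 40 in Cre against 217 and 183 in KO. In these last 3 genes both KO values were above both Cre values.

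**Figure D5:**
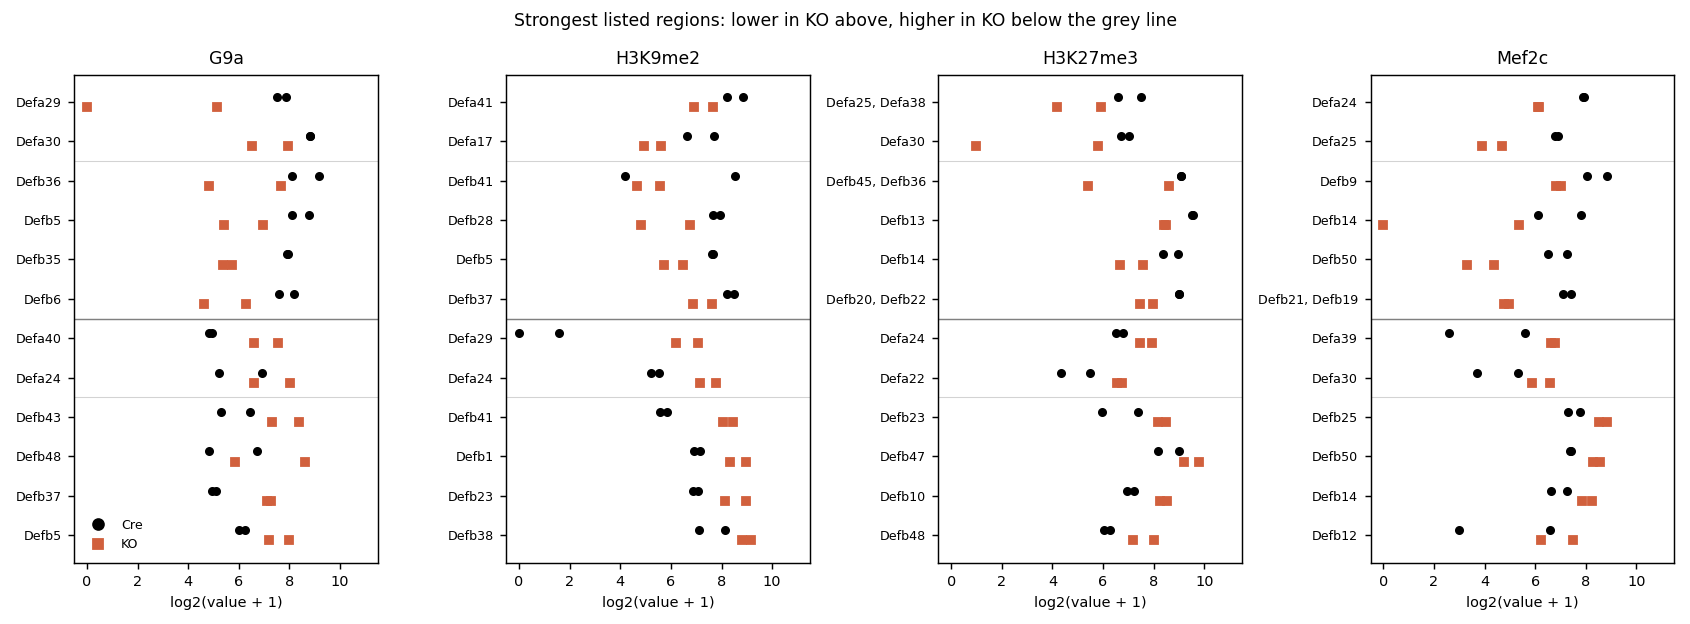
The 4 values of the strongest listed regions per target, as log2(value + 1) (horizontal axis), for Cre (black) and KO (orange) libraries; regions lower in KO are above the dark line and higher below it, each with 2 alpha rows and then 4 beta rows. Values are separated in most rows and overlap at Defa24 and Defb48 for G9a, Defb41 for lower H3K9me2 and Defb12 for Mef2c.

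Of the beta-defensins of epithelia, Defb1, made constitutively in kidney and airway, had 14 H3K9me2 regions, 13 of them higher in KO. The strongest, chr8:21799601-21801200, had 141 and 119 in Cre against 325 and 496 in KO, a log2 ratio of 1.65 (limma unadjusted p = 0.00710). Defb2 had G9a of 278 and 312 in Cre against 88 and 141 in KO at a region that meets the gene. Defb3 had H3K9me2 of 234 and 131 in Cre against 320 and 497 in KO, also at the gene. These 3 genes each had their KO values clear of their Cre values. Defb4 had H3K9me2 of 92 and 132 in Cre against 223 and 355 in KO at 3254 bp, and Defb8 had G9a of 188 and 239 in Cre against 90 and 16 in KO at 4445 bp. So Defb3 and Defb8, whose promoters are printed above as the closest beta pair, had strongest regions of different targets.

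Defb14, known to be induced in skin and other epithelia, had H3K27me3 of 330 and 499 in Cre against 190 and 102 in KO at chr8:19168801-19170600 (log2 ratio -1.50, limma unadjusted p = 0.00844). Its strongest Mef2c region had 224 and 68 in Cre against 0 and 40 in KO, and its strongest higher Mef2c region 153 and 98 in Cre against 232 and 299 in KO. The same long gene thus held Mef2c regions of both directions, 7 lower and 5 higher. Defb5 held G9a regions of both directions as well, with 274 and 431 in Cre against 42 and 124 in KO at 4123 bp, and 64 and 74 in Cre against 147 and 255 in KO at the gene. An H3K9me2 region overlapping the second of these had 204 and 198 in Cre against 87 and 52 in KO.

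For G9a, the lower beta regions also included Defb36 with 571 and 274 in Cre against 204 and 27 in KO, Defb35 with 247 and 241 in Cre against 41 and 52 in KO, and Defb6 with 192 and 287 in Cre against 77 and 24 in KO. All 3 were separated, and the Defb35 region had the closest replicates of the 3 (log2 ratio -2.37, limma unadjusted p = 0.00569). Defb6 had 6 G9a regions, all lower. Higher G9a regions were found at Defb43, with 38 and 87 in Cre against 328 and 159 in KO, and at Defb37, with 33 and 30 in Cre against 139 and 155 in KO. Over the whole windows Defb43 had 3 lower and 3 higher G9a regions, and Defb37 had 4 lower and 1 higher. At Defb48 the first KO value alone was high, with 103 and 27 in Cre against 395 and 57 in KO, so the groups overlapped.

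The beta-defensin region with the highest -log10 p in the authors' deposited lists was an H3K9me2 region within Defb41, on chromosome 1. It had 56 and 47 in Cre against 265 and 349 in KO, a log2 ratio of 2.55 (limma unadjusted p = 0.00166; -log10 p of 42.61 in the authors' deposited list). Its neighbour Defb18 had H3K9me2 of 142 and 218 in Cre against 305 and 368 in KO. A lower H3K9me2 region at Defb41 had 367 and 17 in Cre against 24 and 46 in KO, where the first Cre value alone was high. Defb38 had H3K9me2 of 136 and 277 in Cre against 448 and 570 in KO, in a window with 4 lower and 4 higher H3K9me2 regions. Lower H3K9me2 regions with separated groups were at Defb28, with 242 and 202 in Cre against 27 and 108 in KO, and at Defb37, with 295 and 357 in Cre against 116 and 198 in KO.

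On chromosome 2, Defb23 was met at its promoter by regions of all 4 targets. Its H3K9me2 region, chr2:152463451-152465300, had 134 and 117 in Cre against 283 and 504 in KO (log2 ratio 1.64), and an H3K27me3 region 3255 bp away had 166 and 62 in Cre against 284 and 358 in KO (1.49). Over the whole window its regions were split evenly, 3 lower and 3 higher for H3K9me2 and 4 lower and 4 higher for H3K27me3. Defb22 had a lower H3K27me3 region, with 508 and 512 in Cre against 251 and 174 in KO at 467 bp (-1.26, limma unadjusted p = 0.00766), in a region that also lies in the window of Defb20. Defb19, known from the gonads, had H3K27me3 of 695 and 539 in Cre against 260 and 380 in KO, in a window with 4 lower and 4 higher H3K27me3 regions. The H3K27me3 region near Defb45 and Defb36 had 546 and 536 in Cre against 41 and 390 in KO, where the KO values were far apart. Mef2c was lower near Defb21 and Defb19, with 138 and 168 in Cre against 30 and 26 in KO, and higher near Defb25, with 157 and 220 in Cre against 451 and 364 in KO.

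In the second chromosome 8 cluster, Defb13 had an H3K27me3 region with close replicates, 722 and 745 in Cre against 357 and 336 in KO (log2 ratio -1.08, limma unadjusted p = 0.00615). Defb10 had a region of the opposite direction, with 124 and 147 in Cre against 363 and 300 in KO (1.28), although 6 of its 8 H3K27me3 regions were lower. Mef2c was lower at Defb9, with 265 and 452 in Cre against 113 and 128 in KO. Defb50 had Mef2c regions of both directions, with 89 and 152 in Cre against 9 and 20 in KO, and with 168 and 165 in Cre against 312 and 381 in KO. In the first cluster Defb12 had a higher Mef2c region with overlapping values, 96 and 7 in Cre against 74 and 180 in KO, beside 9 lower regions.

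On chromosome 14 the H3K27me3 regions higher in KO included a 3200 bp region in Defb47, chr14:62994501-62997700, with 509 and 291 in Cre against 591 and 881 in KO. Defb48 had 64 and 76 in Cre against 254 and 144 in KO. Defb30 had 7 higher and 4 lower H3K27me3 regions, and Defb48 had 6 and 2. The higher regions were thus spread over the cluster and not in a single gene.

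Regions of different targets often shared sequence. Among beta-defensins 63.6% of G9a regions touched an H3K27me3 region and 54.7% of H3K27me3 regions touched a G9a region; in the whole lists the shares were 45.8% and 53.4%. Of the 139 touching pairs of H3K9me2 and H3K27me3 regions at beta-defensins, 65 were higher for H3K9me2 and lower for H3K27me3, and at alpha-defensins 7 of 9. In the whole lists 114392 of 310027 pairs had that combination. G9a lower with H3K9me2 higher was seen in 14 of 29 pairs at alpha-defensins (48.3%), 41 of 110 at beta-defensins (37.3%) and 35.6% of the whole lists. The groups for the 4 targets come from separate libraries, and a pair can share a region with another pair.

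Genes that act with defensins had listed regions, as did 80.3% to 96.6% of all genes, depending on the target. All 5 genes of processing and receptors (among them Mmp7, and Ccr6, a chemokine receptor that binds beta-defensins), all 11 matched Paneth cell genes and all 8 other antimicrobial genes had regions of every target, as had both defensin-like neighbours, Spag11a and Spag11b. In the first of these lists 20 of 30 G9a, 10 of 25 H3K9me2, 21 of 32 H3K27me3 and 15 of 22 Mef2c regions were lower in KO. In the Paneth cell list the counts were 56 of 85, 32 of 67, 57 of 94 and 44 of 70. The whole lists had 61.5%, 39.7%, 63.3% and 61.7% lower, and nothing particular to these genes is read from the counts. For H3K27me3, 20 of 28 alpha-defensins had no region, and 0 of 11 Paneth cell genes.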

How the data were processed

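The authors deposited 4 lists of regions for ChIP-seq of G9a, H3K9me2, H3K27me3 and Mef2c. Per the submitters' processing notes, reads were handled with BWA 0.7.10-r789 and SAMtools 1.1 on mm10 (GRCm38). Each region holds 4 signal values (Cre, Cre, KO, KO) and a −log10 p, as deposited by the authors; the caller, the scale of the values, any normalization and the treatment of reads that fit several places are not stated in the sources at hand. The values were not treated as counts, and they carry no replicate number. Regions were listed because they differed, so p-values from them are too small.

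Gene spans and promoters came from RefSeq (GRCm38.p6); 45 of 70 members had a promoter window. A region belonged to a gene if it overlapped the span or 5 kb either side. Identity was computed with edlib 1.3.9.post1. Log2 ratios compare means with a pseudocount of 1 for single regions. limma 3.58.1 (R 4.3.3; log2(value + 1), trend, Benjamini-Hochberg) was fitted on each whole list after it was tested on simulated data. Sums were compared with an exact two-sided permutation test. Members and lists were chosen with earlier results of these data known. The genes named were a set of 20 defensins, with the 2 alpha and 4 beta members whose region had the highest −log10 p per target and direction. The input libraries were not used here. Where the design text writes H3K27me2, the H3K27me3 of the sample labels was taken.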

Additional observations from a re-analysis of the deposited data

Results flagged for a closer look

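H3K27me3 summed over the listed regions of the chromosome 14 beta-defensins had a log2 ratio of 0.26, KO over Cre, while the sums of each of the other groups of defensins were below 0. Both KO libraries were above both Cre libraries on chromosome 14 and below them in each of the others, which is what marked it. The exact comparison with all other members gave p = 0.333, the smallest possible. The chromosome 1 cluster and the beta-defensins of both chromosome 8 clusters reached the same p. Beyond this, the difference between clusters was not tested. The cluster has 5 genes and 30 regions.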

How the results depend on the processing

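No paired analysis was possible because the values in the lists carry no replicate number. The summed signals of alpha-defensins and of beta-defensins kept their direction for all 4 targets with the gene span alone, 20 kb either side, most of a region inside the window, −log10 p of at least 5, scaling to the same median, and each library left out. The share of defensin regions with a limma p under 0.05 rose among regions with −log10 p of at least 5, to 13.3% (G9a), 20.8% (H3K9me2), 27.3% (H3K27me3) and 16.9% (Mef2c). It rose in the whole lists too, to 32053 of 316601, 69676 of 357767, 65438 of 273414 and 50717 of 257057 regions in the same order. Without the trend the share at defensins was 4.26% (G9a), 8.56% (H3K27me3) and 4.61% (Mef2c). The whole lists then had 34933 of 621134, 51230 of 504986 and 45844 of 534606 regions under 0.05. It depended on single libraries, with the lone value assumed to vary like the others: without the first or second Cre value, or the first or second KO value, it was 1.7%, 0.851%, 33.6% and 16.6% for G9a, then 26.3%, 24.7%, 5.19% and 3.57% (H3K9me2), 7.66%, 3.6%, 16.7% and 23.9% (H3K27me3), and 2.3%, 4.15%, 18.9% and 22.1% (Mef2c). In each of these fits the share over the whole list moved in the same direction as at the defensins, for all 4 targets. The dependence on single libraries is therefore not particular to the defensins. After adjustment over the list, 0 G9a regions at defensins passed with all libraries. Some passed, there and over the whole list, without the first KO value, a fit that leaves 1 KO value.

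The alpha minus beta difference, which was not detectable, changed sign for G9a (0.039 with the gene span alone, 0.137 with 20 kb), for H3K9me2 (-0.034 with the gene span alone) and for Mef2c (0.037 and 0.066). With 1 library left out it ran from -0.222 to 0.086 for G9a, -0.032 to 0.125 for H3K9me2, -0.231 to 0.024 for H3K27me3 and -0.337 to -0.026 for Mef2c; the cause was not tested. Scaling and leaving out libraries for single clusters were chosen after seeing the data, and no H3K27me3 cluster changed direction under them. The G9a ratios of the chromosome 2 and chromosome 14 clusters did change direction, as did the H3K9me2 and Mef2c ratios of the chromosome 2 cluster. The depth behind the values is unknown, and 2 libraries against 2 cannot give an exact p below 0.333.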
